A study of Mus musculus with 9 samples.

Results

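The 10 genes of the cardiac sarcomere followed in the 9 libraries of the series were Tnnt2, Tnni1, Tnnc1, Actc1, Myh6, Myh7, Myl3, Myl4, Myl7 and Ttn. They were chosen by gene symbol, and each symbol matched 1 of the 49326 named genes in the deposited tables, so that 10 of 10 were found. The series compares Hnrnpll knockout (Hnrnpll-/-) with wild type mouse embryonic stem cells, by polyA+ RNA-seq, while the cells form embryoid bodies. The product of Hnrnpll binds RNA and is best known as a splicing regulator of lymphocytes. The knockout groups held 2 libraries each at day 0 (stem cells), day 4 and day 8 (embryoid bodies), 1 from line G6 and 1 from line H8, and the wild type groups held 1 library at each of the same days. Stem cells of both genotypes were grown with serum and leukemia inhibitory factor, and bodies were formed in hanging drops. The strain and the way in which lines G6 and H8 were derived are not given in the sources used here. Because wild type is a single line with 1 library per day, genotype and line cannot be told apart, and p-values rest on the spread between the knockout libraries, which is assumed for wild type too.

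The sarcomere is the contractile unit of striated muscle, in which thick filaments of myosin pull on thin filaments of actin. Calcium binds troponin C, and troponin I and troponin T pass that signal to tropomyosin on the thin filament, which exposes the sites where myosin binds. Titin spans the unit from its end to its centre as an elastic scaffold. In differentiating mouse stem cells these genes come on once mesoderm forms cardiomyocytes, and beating areas in embryoid bodies are the usual sign of it.

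Total counts per library ran from 54218051 to 184952442, with the 2 knockout libraries of day 0 the shallowest. Hnrnpll itself was read at 54.9, 61.2 and 56.5 TPM in line G6 and at 24.5, 38.6 and 43.5 TPM in line H8 on days 0, 4 and 8, against 77.1, 101 and 112 TPM in wild type. Its RNA was thus lower in each knockout library than in the wild type library of its day but not absent, and none of the 3 differences passed the test (adjusted p = 0.245, 0.376 and 0.212, edgeR). Low counts fell on multiples of 4 in 43.5% (G6) and 42.6% (H8) of cases in the knockout stem cells and in 30.5% to 33.2% of cases elsewhere. So 1 count may not stand for 1 independent fragment, and where the multiples come from was not tested. Pou5f1, the pluripotency factor gene that marks stem cells, was read at 1953 TPM in G6 and 1761 TPM in H8, against 1372 TPM in wild type, at day 0. TPM, the transcript level scaled to gene length and library size, is used for levels, and counts for tests.

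At day 8 each knockout line had less RNA of every member than wild type had, and 8 of 10 passed the test: Actc1, Myh7, Tnnt2, Myl7, Myh6, Tnnc1, Ttn and Myl4. Over all 24794 genes tested, 4.86% (1205) were called lower at day 8, and 2446 were called in either direction. All 10 members were among the genes tested, and each passed the filter on low counts in at least 6 of the 8 libraries other than wild type at day 8. The log2 differences of the members ran from -6.75 to -2.34, with a median of -3.82, while the median of all genes was 0.075. Summed over the 10 members, the level was 19.7 TPM in G6 and 28.1 TPM in H8, against 427 TPM in wild type. Both knockout libraries lay below wild type for 10 of 10 members, and for 44.4% of all genes. Such a difference in bulk RNA can come from fewer cardiomyocytes or from less RNA in each, which cannot be told apart here.

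The day 8 calls rest on the spread shared over the 3 days. Leaving out the day 4 library of G6, the day 4 library of H8 or the day 8 library of G6 left 0 members called in each case (10 of 10 still at an unadjusted p under 0.05), and 0, 0 and 2 genes called lower in all. Without the day 8 library of H8, 6 members and 335 genes were called lower, and a fit to the 3 day 8 libraries alone called 0 members and 0 genes lower, with adjusted p from 0.059 to 0.077 for the members. DESeq2, limma-voom and limma on log2(TPM + 1) or log2(TPM + 0.1) each called 10 of 10. Of all genes they called 2645, 2441, 2079 and 1491 lower, in that order.

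**Figure D1:**
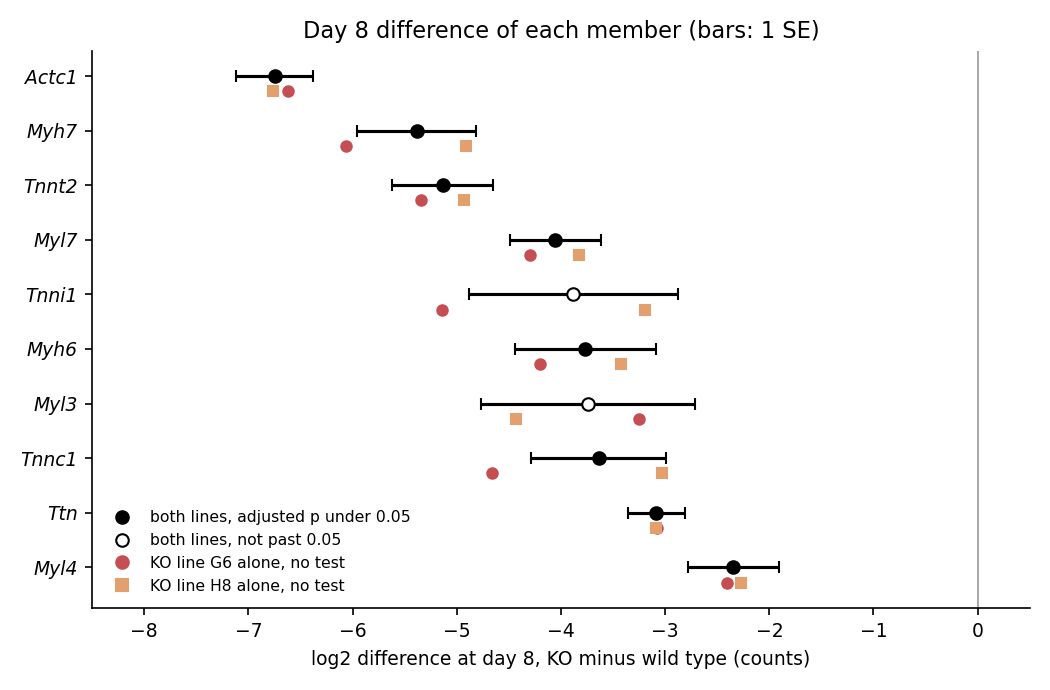
Log2 difference at day 8, knockout minus wild type, for each of the 10 members (x axis, from counts; genes on the y axis). Black circles give the edgeR estimate over both knockout lines with bars of 1 SE, filled where the adjusted p is under 0.05, and coloured points give each line alone without a test. All 10 lie below 0, from -6.75 for Actc1 to -2.34 for Myl4, and the bars are widest for Tnni1 (SE 1.001) and Myl3 (SE 1.03).

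The 3 troponin genes encode the calcium switch of the thin filament. Tnnt2 (ENSMUSG00000026414, chr1:135836354-135852260, plus strand, mm10) encodes cardiac troponin T, which ties the complex to tropomyosin. It was read at 1.51 TPM in G6 and 2.14 TPM in H8, against 72.5 TPM in wild type, or 169 and 275 counts against 5764. The knockout lines lay close together and far below wild type, a 35.2-fold difference (log2 -5.14, SE 0.49, adjusted p = 0.0142, edgeR). Tnni1 (ENSMUSG00000026418, chr1:135779434-135810989, plus strand) encodes slow skeletal troponin I, the form that the embryonic heart uses, and lies 25.4 kb from Tnnt2. Its levels were 0.580 TPM in G6 and 3.02 TPM in H8, against 32.3 TPM in wild type. The lines did not reach wild type but were 5.21-fold apart, and the log2 difference of -3.88 (SE 1.001) did not pass the test (adjusted p = 0.063, edgeR); with the knockout line as a replicate block it did (adjusted p = 0.031). Tnnc1 (ENSMUSG00000091898, chr14:31208312-31211729, plus strand) encodes the calcium-binding troponin C of heart and slow muscle. It stood at 1.70 TPM in G6 and 5.37 TPM in H8, against 47.8 TPM in wild type, and was 12.5-fold lower in the knockout (log2 -3.64, SE 0.65, adjusted p = 0.029, edgeR). Tnnc1 lies inside Nisch, a gene on the other strand, with which it shares 0 exon bases.

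Actc1 (ENSMUSG00000068614, chr2:114047282-114053548, minus strand) encodes cardiac alpha-actin, the main actin of the heart's thin filament. Its levels at day 8 were 0.469 TPM in G6 and 0.432 TPM in H8, against 53.2 TPM in wild type, or 60 and 66 counts against 5106. The knockout lines almost coincided, and the gene had the largest log2 difference of the 10 members, 108-fold lower (log2 -6.75, SE 0.37, adjusted p = 0.0142, edgeR). Actin genes are close copies of each other, and how the authors' counting treated reads that match several of them is not given in the sources used here.

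Myh6 (ENSMUSG00000040752, chr14:54941921-54966927, minus strand) and Myh7 (ENSMUSG00000053093, chr14:54970684-54994626, minus strand) encode the alpha and beta cardiac myosin heavy chains, the motors of the thick filament, and lie 3.76 kb apart. Myh6 was read at 0.857 TPM in G6 and 1.49 TPM in H8, against 19.96 TPM in wild type. Myh7 was read at 0.285 TPM in G6 and 0.661 TPM in H8, against 21.6 TPM in wild type. Neither gene overlapped between genotypes. Myh6 was 13.6-fold lower (log2 -3.77, SE 0.68, adjusted p = 0.030, edgeR) and Myh7 41.7-fold lower (log2 -5.38, SE 0.57, adjusted p = 0.0175, edgeR). These neighbours are close copies too, with the same limit on the counting. Mhrt, an antisense RNA that covers 5.62% of the exon bases of Myh7, had 32 counts in wild type at day 8 and 0 in each of the other 8 libraries, which is few beside the 8595 counts of Myh7 in that library.

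The 3 light-chain genes encode the small subunits on the neck of the myosin head. Myl7 (ENSMUSG00000020469, chr11:5896637-5898782, minus strand), the regulatory light chain of the atria and of the early heart tube, had the highest level of all members in wild type at day 8. It was read at 3.94 TPM in G6 and 5.53 TPM in H8, against 85.7 TPM in wild type, 16.6-fold lower (log2 -4.05, SE 0.43, adjusted p = 0.0175, edgeR). Myl4 (ENSMUSG00000061086, chr11:104550663-104595753, plus strand), the essential light chain of atrial and embryonic muscle, stood at 6.45 TPM in G6 and 7.65 TPM in H8, against 51.7 TPM in wild type. It was the highest member in both knockout lines and had the smallest difference, 5.08-fold (log2 -2.34, SE 0.44, adjusted p = 0.032, edgeR). Myl3 (ENSMUSG00000059741, chr9:110741861-110769798, plus strand), the essential light chain of ventricle and slow muscle, stood at 3.72 TPM in G6 and 1.62 TPM in H8, against 39.5 TPM in wild type. It was higher in G6 than in H8, as otherwise only Actc1 was among the members at day 8. Its log2 difference of -3.74 (SE 1.03) did not pass the test (adjusted p = 0.072, edgeR). Myl3 shares 4.65% of its exon bases with Pth1r, a gene on the other strand. Pth1r had 3037 counts in G6 and 1633 in H8, against 3748 in wild type at day 8. Its part in the Myl3 counts was not tested.

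Ttn (ENSMUSG00000051747, chr2:76703980-76982547, minus strand) encodes titin. It was read at 0.167 TPM in G6 and 0.173 TPM in H8, against 2.45 TPM in wild type, or 1520 and 1835 counts against 10635. The lines nearly coincided, and the gene was 8.48-fold lower by counts (log2 -3.08, SE 0.28, adjusted p = 0.0142, edgeR). Its TPM and its counts do not move in step. The TPM per CPM (a count scaled to library size) of Ttn, divided by that of the median gene of the library, was 0.040 in wild type at day 8. It was 0.0247 to 0.0260 in the other 8 libraries, so the TPM ratio is larger than the count ratio. At day 8 this measure was also higher in wild type for Myl4 (2.86, against 2.05 in G6 and 2.19 in H8), Tnni1 (3.06, against 2.18 and 2.83) and Myh6 (0.513, against 0.440 and 0.441).

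Between the lines, H8 exceeded G6 in 8 of 10 members at day 8, compared with 52.5% of all genes, and the exceptions were Actc1 and Myl3. As a share of the wild type level at day 8, G6 ran from 0.882% (Actc1) to 12.5% (Myl4), and H8 from 0.812% (Actc1) to 14.8% (Myl4). Tnni1, Tnnc1 and Myh7 were the members most raised in H8 over G6, at 5.21-fold, 3.16-fold and 2.32-fold. At day 4 each line was the higher one for 5 members (H8 for 40.9% of all genes), and at day 0 G6 was higher for 8 and H8 for 1 (H8 for 41.6% of all genes), with Actc1 at 0 in both. With 1 library per line and day these differences were not tested.

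The order of the members also differed. In wild type at day 8 it ran Myl7, Tnnt2, Actc1, Myl4, Tnnc1, Myl3, Tnni1, Myh7, Myh6 and Ttn. In both knockout lines Myl4 and Myl7 led, Ttn was last, and Actc1 stood just above Myh7 and Ttn in G6 and just above Ttn in H8. Of the 10 members, 5 in G6 and 7 in H8 reached 1 TPM at day 8, and all 10 did in wild type. With 1 wild type library, neighbours in its order cannot be set against a spread; in the knockout Myl4 averaged 7.05 ± 0.848 TPM and Myl7 4.73 ± 1.13 TPM (SD, n = 2 lines).

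The sequence around the annotated starts was examined for letters bound by factors known to drive muscle genes, since these genes move together at day 8. RefSeq (GRCm38.p6) holds 13 windows for the 10 members, each from 250 bases before a start to 50 after it. The CArG box, the site of serum response factor, occurred on either strand in windows of 3 members, Actc1, Myl3 and Myl7, and in 1.63% of all 32851 windows. CATTCC, the M-CAT element of the TEAD factors, occurred on either strand in windows of 7 members (Tnnt2, Tnnc1, Myh6, Myh7, Myl3, Myl7 and Ttn) and in 14.7% of all windows. AGATAA or TGATAA, the GATA factor site, occurred on either strand in 2 members, Tnnt2 and Myl7, and in 18.6% of windows, and a MEF2 site in Ttn and in 3.19% of windows. TATAAA on the gene's strand was found in Actc1 and Myh6 and in 8.32% of windows. It lay after the annotated start in both, at positions 34 (Actc1) and 2 (Myh6), as did the CATTCC of Ttn, at position 12. No motif was found in windows of Tnni1 or Myl4, and none of these matches overlapped another.

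The 250 bases before the start are shown for the 3 members with a CArG box and for Tnnt2, which had none of it but an M-CAT element 27 bases before its start. They are given 5′ to 3′ on the gene's strand, with the matches to the CArG box, the M-CAT element and the GATA site in capitals, whichever strand they were found on. They lie at chr2:114052876-114053125 (Actc1, minus strand), chr9:110763428-110763677 (Myl3, plus strand), chr11:5898783-5899032 (Myl7, minus strand) and chr1:135836084-135836333 (Tnnt2, plus strand).
Actc1: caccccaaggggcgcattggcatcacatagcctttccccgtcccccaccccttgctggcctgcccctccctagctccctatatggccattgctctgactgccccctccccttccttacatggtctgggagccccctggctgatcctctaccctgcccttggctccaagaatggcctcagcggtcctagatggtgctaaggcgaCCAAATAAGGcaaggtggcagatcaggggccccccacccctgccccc
Myl3: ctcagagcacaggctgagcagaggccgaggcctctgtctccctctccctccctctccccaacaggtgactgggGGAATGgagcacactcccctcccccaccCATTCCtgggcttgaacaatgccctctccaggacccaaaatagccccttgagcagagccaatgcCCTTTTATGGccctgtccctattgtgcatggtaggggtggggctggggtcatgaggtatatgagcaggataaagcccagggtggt
Myl7: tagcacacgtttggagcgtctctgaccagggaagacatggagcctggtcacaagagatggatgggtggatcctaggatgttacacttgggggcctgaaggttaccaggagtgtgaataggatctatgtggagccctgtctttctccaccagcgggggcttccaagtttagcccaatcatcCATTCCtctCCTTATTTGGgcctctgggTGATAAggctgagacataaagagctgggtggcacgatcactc
Tnnt2: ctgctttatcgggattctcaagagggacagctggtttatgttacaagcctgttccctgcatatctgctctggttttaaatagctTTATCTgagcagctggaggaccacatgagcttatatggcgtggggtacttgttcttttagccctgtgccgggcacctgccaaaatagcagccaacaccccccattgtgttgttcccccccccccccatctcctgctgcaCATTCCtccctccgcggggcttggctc

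In Myl7 the CATTCC, the CArG box and the TGATAA letters begin 70, 61 and 42 bases before the start, within one short stretch. The CArG box begins 47 bases before the start of Actc1 and 85 bases before that of Myl3. These distances are from RefSeq starts, which for Actc1 and Myl3 lie inside the GENCODE gene spans given above. A match describes the letters only; no binding was measured.

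Day 4 showed little of the day 8 pattern. No member passed the test, against 0.00403% of all genes called lower (1 gene) and 0.00807% called in either direction; 2 members had an unadjusted p under 0.05 in edgeR, DESeq2 called both, and limma-voom called 0. These were Myl7 and Actc1. The share of all genes that DESeq2 called at this day is not given here. Myl7 stood at 5.57 TPM in G6 and 4.71 TPM in H8, against 23.5 TPM in wild type (log2 -2.27, SE 0.42, adjusted p = 0.141). Actc1 stood at 3.26 TPM in G6 and 2.52 TPM in H8, against 8.81 TPM in wild type (log2 -1.69, SE 0.32, adjusted p = 0.168). For both genes the lines lay together below wild type already at this day.

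The other members at day 4 lay above wild type in at least 1 line, apart from Tnnc1 and Tnni1. Tnnc1 had 3.63 TPM in G6 and 4.30 TPM in H8, against 6.71 TPM in wild type. The myosin heavy chains stood the other way, above wild type in both lines. Myh6 had 2.62 TPM in G6 and 2.36 TPM in H8, against 1.04 TPM in wild type, and Myh7 had 0.590 TPM in G6 and 0.383 TPM in H8, against 0.227 TPM in wild type. Neither difference passed the test (adjusted p = 0.533 for Myh6 and 0.520 for Myh7, edgeR). The log2 differences were negative for 4 members and positive for 6, with a median of 0.16, against 0.069 over all genes.

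In the stem cells at day 0, 1 member of 10 was called in either direction, Actc1, against 5.43% of all genes (4.33% lower). Actc1 had 0 counts in G6 and 0 in H8, against 385 counts (4.38 TPM) in wild type. With a floor of 3 counts over the knockout group it was at least 133-fold lower (adjusted p = 0.0047, edgeR), or at least 33.2-fold if counts come in steps of 4. By day 4 the same lines had 333 and 288 counts of it, so the gene was not silent in them at every day. Myl4 stood the other way at day 0, at 14.7 TPM in G6 and 8.05 TPM in H8, against 2.33 TPM in wild type (log2 2.24, SE 0.52, adjusted p = 0.066, edgeR). It passed the test without the H8 library of day 0 (adjusted p = 0.027). Myl7 was also higher in both lines, at 13.8 TPM in G6 and 7.46 TPM in H8, against 5.51 TPM in wild type, and did not pass (adjusted p = 0.274).

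A further 5 members had lower TPM in both lines at day 0 without passing the edgeR test, Myh6, Myh7, Ttn, Tnnt2 and Myl3. The share of all genes below wild type in both lines at day 0 is not given here, so this count has no share to be set against. Myh6 had 0.761 TPM in G6 and 0.197 TPM in H8, against 2.03 TPM in wild type (adjusted p = 0.131), and passed without the G6 library of day 0 (adjusted p = 0.035). Myh7 had 0.237 TPM in G6 and 0.139 TPM in H8, against 0.605 TPM in wild type (adjusted p = 0.145). Ttn had 0.531 TPM in G6 and 0.571 TPM in H8, against 1.14 TPM in wild type (adjusted p = 0.085). DESeq2 called 5 members at day 0: Actc1, Myh6, Myh7 and Ttn lower, and Myl4 higher. How many of all genes it called at that day is not given here. Tnni1 had 8 and 5 counts in the knockout lines and 0 in wild type, and Tnnc1 was at or below 1.65 TPM in all 3 libraries. Tnnt2 had 0.610 TPM in G6 and 0.393 TPM in H8, against 0.877 TPM in wild type, and Myl3 had 0.265 TPM in G6 and 0 in H8, against 0.709 TPM in wild type. All 3 lines at day 0 also held RNA of fibroblast and smooth muscle markers. The summed smooth muscle list was 196 TPM in G6 and 150 TPM in H8, against 552 TPM in wild type. The fibroblast list was 137 TPM in G6 and 68.6 TPM in H8, against 180 TPM in wild type. The part of such cells in the day 0 differences was not tested.

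**Figure D2:**
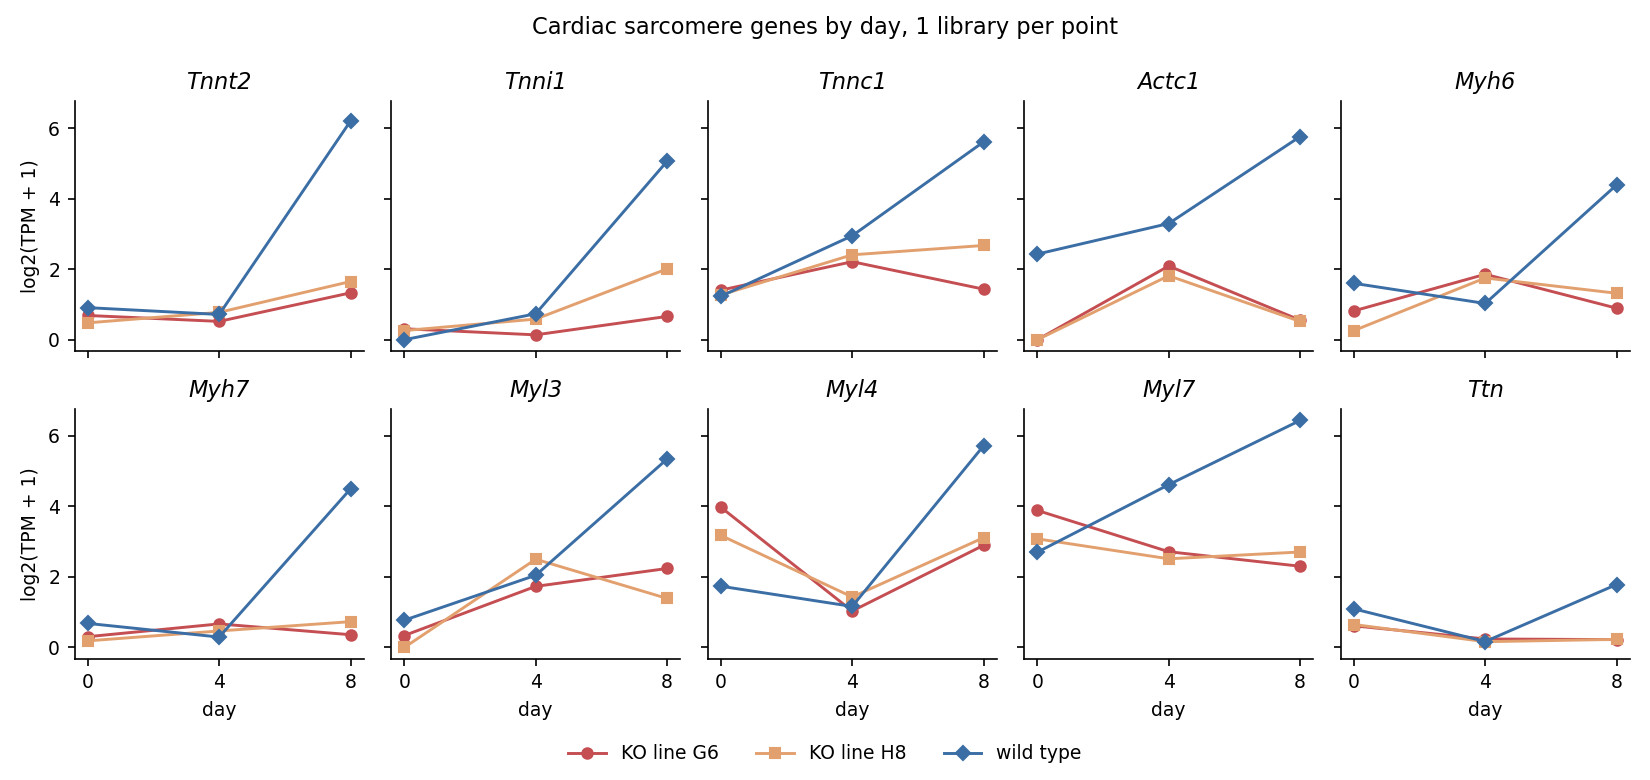
Level of each of the 10 members by day (x axis: day 0, 4 and 8; y axis: log2(TPM + 1)), with 1 library per point for knockout line G6 (red circles), knockout line H8 (orange squares) and wild type (blue diamonds). The wild type line rises from day 4 to day 8 in every panel. At day 8 both knockout lines lie below it, with Myl4 the highest of them at 6.45 and 7.65 TPM. For Myl4 and Myl7 the knockout lines start higher at day 0, at 14.7 (G6) and 8.05 (H8) TPM and at 13.8 (G6) and 7.46 (H8) TPM.

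The course from day 4 to day 8 was rising in wild type for 10 of 10 members, compared with 55.6% of all genes. The ratio of day 8 to day 4 ran from 3.64 (Myl7) to 113 (Tnnt2), with a median of 19.5, and Myh7 (94.9) and Tnni1 (48.7) followed Tnnt2. In G6, 4 members were higher at day 8 than at day 4 and 6 were lower, with a median ratio of 0.813, and in H8, 7 were higher and 3 lower, with a median ratio of 1.34. Of all genes, 44.9% were higher at day 8 in G6 and 53.2% in H8. The wild type course, with 1 library per day, was not tested by itself.

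Along the knockout course, tested over both lines, 0 members were called between day 4 and day 8, against 0.165% of genes called higher and 0.145% called lower; 4 members had an unadjusted p under 0.05. The largest step up was that of Myl4, with 1.05 TPM in G6 and 1.70 TPM in H8 at day 4 and 6.45 and 7.65 TPM at day 8 (log2 2.50, SE 0.40, adjusted p = 0.077, edgeR). Tnnt2, at 0.433 TPM in G6 and 0.711 TPM in H8 at day 4, stood 2.53-fold higher at day 8 (log2 1.34, SE 0.40, adjusted p = 0.240). Actc1 went the other way in both lines, 6.32-fold lower at day 8 than at day 4 (log2 -2.66, SE 0.30, adjusted p = 0.059, edgeR). Other fits did call members, and the share of all genes called in them is not given here. DESeq2 called Myl4 and Tnnt2 higher and Actc1 lower, limma-voom called Myl4 and Actc1, and edgeR called the same pair without either day 0 knockout library (adjusted p = 0.042 for each gene in each fit) or with days 4 and 8 only (adjusted p = 0.043 for each).

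The steps themselves were then compared. The day 4 to day 8 step was smaller in the knockout than in wild type for 10 of 10 members, with log2 differences from -6.39 (Myh7) to -1.78 (Myl7) and a median of -3.58, against a median of 0.0073 over all genes. None passed the edgeR test (adjusted p from 0.111 to 0.436), nor did any of the 24794 genes, so that 0% was called; 9 members and 4041 genes had an unadjusted p under 0.05. DESeq2 called 6 members (Tnnt2, Actc1, Myh6, Myh7, Myl4 and Ttn), limma on log2(TPM + 1) called 5 of these without Myl4, and limma-voom called 0. The share of all genes called by these tools is not given here, so their counts of members have no share to be set against.

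**Figure D3:**
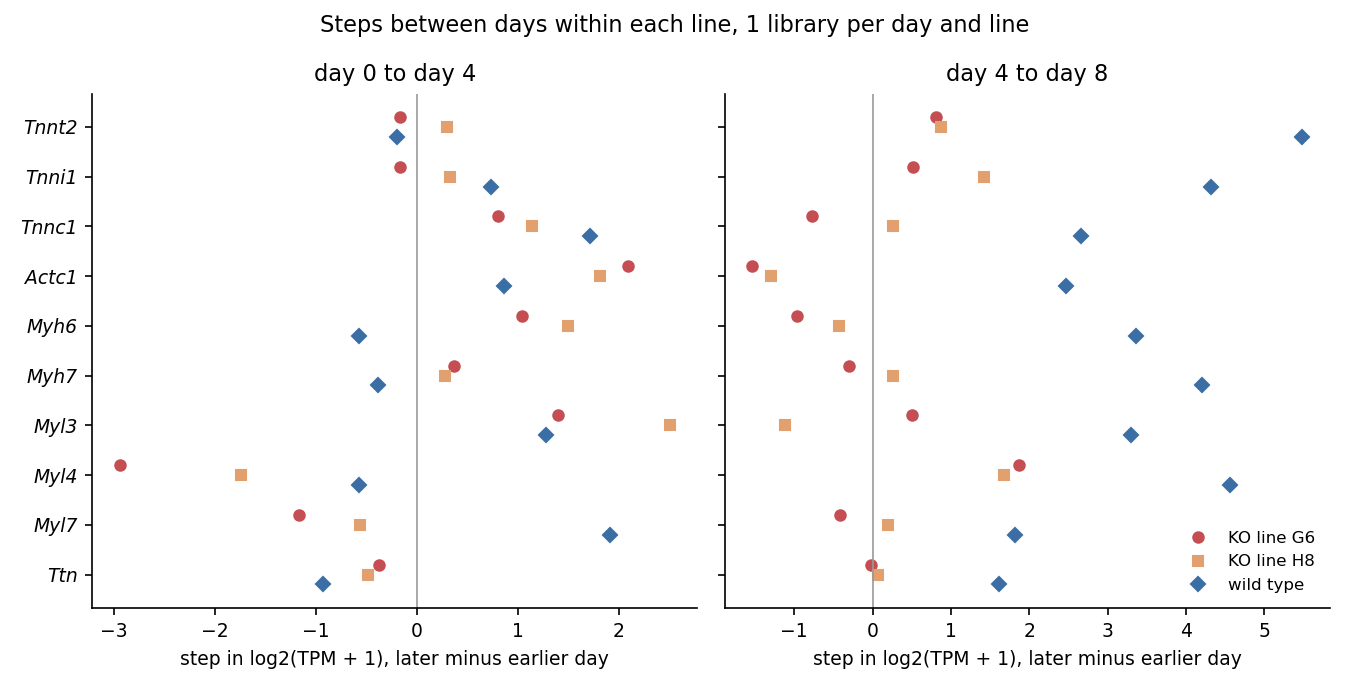
Step in log2(TPM + 1) between days, later minus earlier, for each member (y axis) in knockout line G6, knockout line H8 and wild type, from 1 library per day and line; the left panel gives day 0 to day 4 and the right panel day 4 to day 8. In the right panel the wild type point lies to the right of both knockout points for 10 of 10 members, and both knockout points of Actc1 and Myh6 lie left of 0.

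Members and their paralogs (related genes for the same sarcomere part) were set side by side at day 8. Tnnt1, slow skeletal troponin T, was read at 19.3 TPM in G6 and 13.7 TPM in H8, against 4.80 TPM in wild type (log2 1.84, adjusted p = 0.057, edgeR). The Tnnt2 to Tnnt1 ratio was thus 0.0781 in G6 and 0.156 in H8, against 15.1 in wild type. Tnni3, the troponin I of the adult heart, was read at 6.52 TPM in G6 and 9.59 TPM in H8, against 4.30 TPM in wild type (log2 0.84, adjusted p = 0.32), and the Tnni1 to Tnni3 ratio was 0.0889 in G6 and 0.315 in H8, against 7.52 in wild type. Acta1, skeletal alpha-actin, was read at 16.0 TPM in G6 and 19.2 TPM in H8, against 11.9 TPM in wild type (log2 0.66, adjusted p = 0.467). The Actc1 to Acta1 ratio was 0.0293 in G6 and 0.0225 in H8, against 4.46 in wild type. For these 3 pairs the paralog was higher in both knockout libraries than in wild type while the member was lower, and none of the 3 paralogs passed the test; Tnnt1 did with the line as a replicate block (adjusted p = 0.045). Tnnc2, the troponin C of fast skeletal muscle, was also higher in both knockout libraries, at a low level of 0.546 TPM in G6 and 0.736 TPM in H8, against 0.190 TPM in wild type, and did not pass (log2 1.82, adjusted p = 0.495).

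For Myh7 and Myh6, Myl7 and Myl2, and Myl4 and Myl3 both partners were lower in the knockout libraries. The Myh7 to Myh6 ratio was 0.333 in G6 and 0.443 in H8, against 1.08 in wild type at day 8. In wild type the same ratio was 0.298 at day 0 and 0.219 at day 4, so the knockout ratios at day 8 lay nearer to these than to the wild type ratio of their own day. Myl2, the ventricular regulatory light chain, was read at 1.15 TPM in G6 and 1.09 TPM in H8, against 9.78 TPM in wild type (log2 -3.02, adjusted p = 0.055, or 0.043 with the replicate block). The Myl7 to Myl2 ratio was 3.41 in G6 and 5.06 in H8, against 8.76 in wild type. Myl4 exceeded Myl3 1.73-fold in G6 and 4.71-fold in H8, against 1.31-fold in wild type. The ratios are values of single libraries and were not tested.

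**Figure D4:**
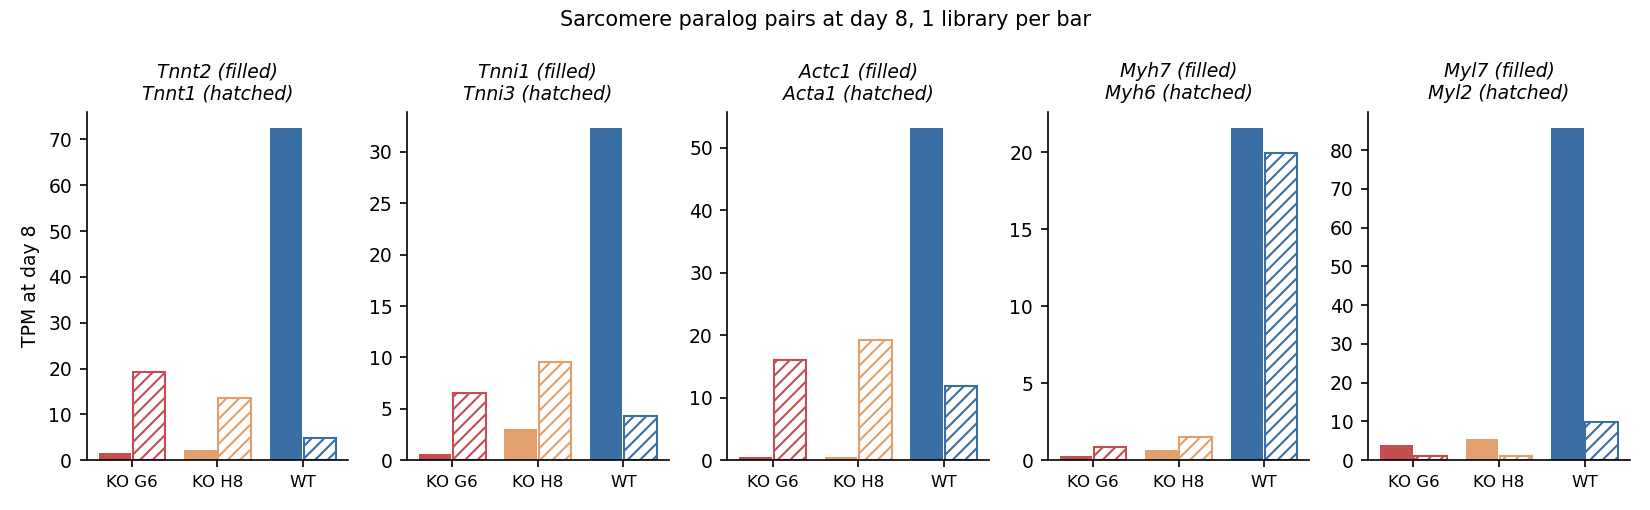
TPM at day 8 of 5 pairs of sarcomere paralogs in knockout line G6, knockout line H8 and wild type, 1 library per bar, with the first gene of the pair filled and the second hatched (y axis: TPM, each panel with its own scale from 0). In the panels of Tnnt2, Tnni1 and Actc1 the hatched bar is the taller one in both knockout lines and the filled bar in wild type; in the panel of Myl7 the filled bar is the taller one in all 3.

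The other genes of the contractile apparatus moved less uniformly than the members. Among thick and thin filament partners, 5 of 16 tested were lower at day 8 and 0 higher, with a median log2 difference of -1.92. They were the cardiac myosin light chain kinase gene Mylk3 (log2 -6.02, adjusted p = 0.045, or 0.054 with the replicate block), the M-band gene Myom1 (-3.03, 0.0176), the myosin-binding protein C gene Mybpc3 (-2.74, 0.0237), the myosin chaperone gene Unc45b (-2.37, 0.031) and Smyd1 (-2.01, 0.042). Tpm1, a tropomyosin gene used in muscle and other cells, was the highest of the list at 283 TPM in G6 and 458 TPM in H8, against 900 TPM in wild type, and did not pass (adjusted p = 0.054). Among Z-disc and muscle cytoskeleton genes, 3 of 15 tested were lower and 0 higher (median -0.61): Hspb7 (log2 -4.18, adjusted p = 0.037), Nexn (-3.70, 0.0175) and Ankrd1 (-3.61, 0.033). Flnc, a muscle filamin and the highest of that list, did not pass (log2 -0.92, adjusted p = 0.337).

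Among genes of calcium handling and excitation, 2 of 11 tested were lower and 0 higher (median -0.77). These were Slc8a1, the sodium-calcium exchanger (log2 -4.80, adjusted p = 0.036), and Cacna1c, the L-type calcium channel (-3.25, 0.0215). Atp2a2, the calcium pump of the sarcoplasmic reticulum that many other cells also use, had 149 TPM in G6 and 133 TPM in H8, against 143 TPM in wild type (log2 0.066, adjusted p = 0.821). Of natriuretic peptide and muscle metabolism genes, 0 of 9 tested were lower and 2 higher (median -0.35), Fabp3 (log2 1.93, adjusted p = 0.028), a fatty acid binding protein gene, and Cox7a1 (1.59, 0.044).

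Of 21 cardiac transcription factor genes, all tested, 5 were lower at day 8 and 0 higher, with a median of -2.65. Tbx20 was read at 0.705 TPM in G6 and 2.61 TPM in H8, against 44.6 TPM in wild type (log2 -4.48, adjusted p = 0.039). Myocd, the coactivator of serum response factor, had a log2 difference of -4.04 (adjusted p = 0.028), Isl1 of -3.57 (0.0243), Mef2c of -3.47 (0.049, or 0.053 with the replicate block) and Smarcd3 of -2.12 (0.031). Hand1, the highest of the list at 14.7 TPM in G6 and 57.7 TPM in H8, against 239 TPM in wild type, did not pass (log2 -2.61, adjusted p = 0.071) but did with the replicate block (adjusted p = 0.023). The block called 8 genes of the list lower and 1, Mesp2, higher, and it called 1573 of all 24794 genes lower. Mesp2 and Myh3 were chosen after their values were seen. Without the day 4 library of either knockout line, or without the day 8 library of G6, 0 of the 132 tested genes of these and the following lists were called in either direction, and without the day 8 library of H8, 19 were called lower and 5 higher, against 26 and 8 with all libraries.

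Markers of other cell types moved at day 8 as well. Of 13 skeletal muscle genes tested, 0 were called in either direction by edgeR (4 at an unadjusted p under 0.05), 2 by DESeq2 and 0 by limma-voom, and the master regulators Myod1 and Myog were at or below 0.12 TPM in all 3 libraries. The list's median was 1.82, or 1.26 with genes at 0 counts in a group set at their bound. Mylpf, a fast skeletal light chain gene, had 88.4 TPM in G6 and 348 TPM in H8, against 22.9 TPM in wild type, and did not pass (log2 3.18, adjusted p = 0.064) but did with the replicate block (adjusted p = 0.037), which also called Myh3 higher. Of 11 smooth muscle genes, Actg2 (log2 -4.33, adjusted p = 0.028) and Tagln (-2.04, 0.0237) were lower, none was higher, and the median was -0.82. Acta2, smooth muscle actin, which early cardiomyocytes also express, had 2.80 TPM in G6 and 39.0 TPM in H8, against 780 TPM in wild type, and did not pass (adjusted p = 0.061, or 0.040 with the replicate block).

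Of 7 fibroblast genes, Col3a1 (log2 -6.85, adjusted p = 0.031) and Dcn (-5.34, 0.0274) were lower, with a list median of -5.34. Postn stood at 0.335 TPM in G6 and 8.33 TPM in H8, against 315 TPM in wild type (adjusted p = 0.080). Thy1, on the same list, stood the other way, at 6.43 TPM in G6 and 6.63 TPM in H8, against 3.98 TPM in wild type. Its log2 difference of 0.94 did not pass the edgeR test. Of 8 endothelial and blood genes tested, 3 were lower, Cdh5 (log2 -5.42, adjusted p = 0.039), Kdr (-4.81, 0.028) and Tek (-1.21, 0.046), with a median of -2.49. The embryonic globin gene Hbb-bh1 did not pass (adjusted p = 0.087, or 0.0171 with the replicate block). That block called 5 genes of the list lower, and 1573 of all genes. Pecam1, an endothelial gene of the list, stood the other way, at 49.0 TPM in G6 and 41.6 TPM in H8, against 21.1 TPM in wild type. It did not pass (log2 1.24, adjusted p = 0.140, edgeR). Of 6 yolk sac endoderm genes, Ttr (log2 -3.96, adjusted p = 0.0215) and Apob (-3.54, 0.0242) were lower, with a median of -2.21. All 5 pluripotency genes passed the edgeR test as higher in the knockout, with a median of 2.87. Among them were Esrrb (log2 3.11, adjusted p = 0.0142), Nanog (3.02, 0.0176) and Pou5f1 (2.68, 0.0142). Over all 24794 genes tested, 2446 were called at day 8 in either direction, 1205 of them lower. Among 10 non-muscle actin and myosin genes, Myh10 (log2 -1.92, adjusted p = 0.025) and Tpm4 (-1.58, 0.0175) were lower and Myh14 higher (2.02, 0.026), and Actg1, the highest, did not pass (adjusted p = 0.940). The members' fall at day 8 thus came beside falls in some, not all, of the other mesoderm and endoderm genes listed and a rise in pluripotency genes. How far the make-up of the bodies enters it was not tested.

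**Figure D5:**
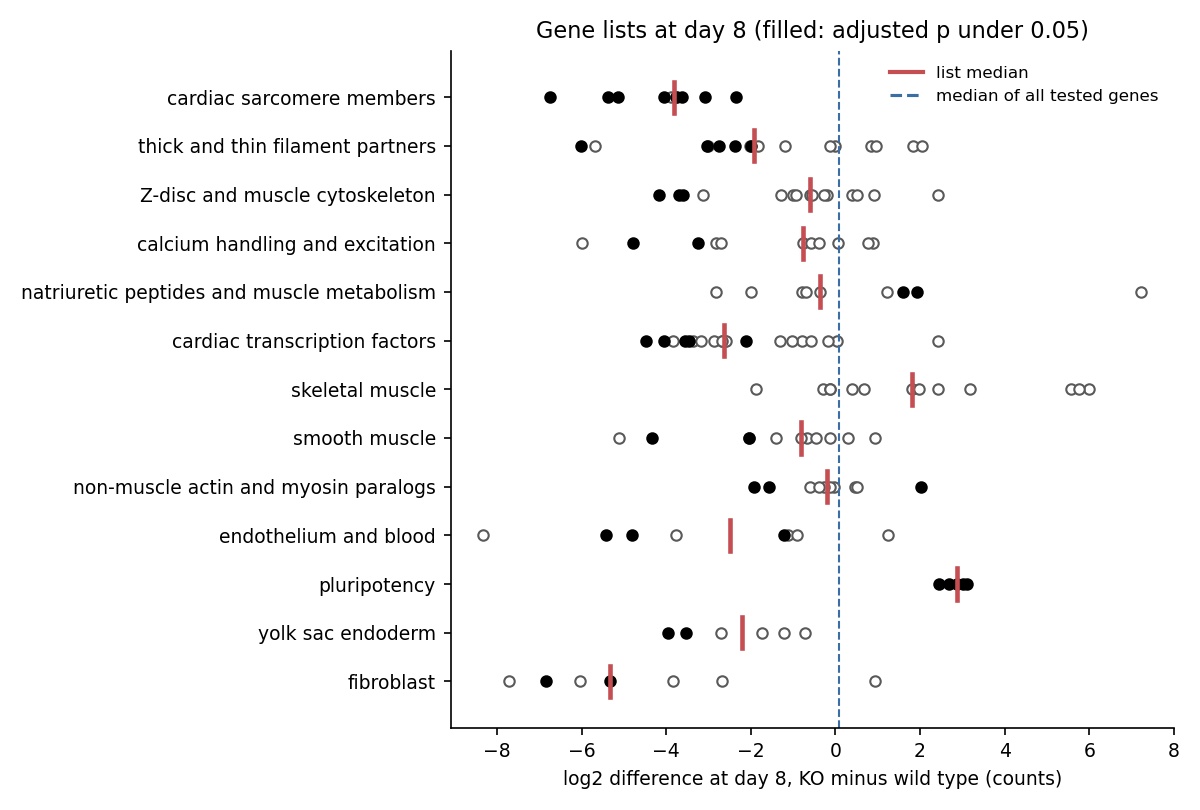
Log2 difference at day 8, knockout minus wild type (x axis, from counts), of each tested gene of the members and of 12 gene lists (y axis); filled points have an adjusted p under 0.05, red bars are list medians and the dashed line is the median of all tested genes, 0.075. All 10 members lie left of 0 with a median of -3.82, while the pluripotency genes lie right of 0 with a median of 2.87.

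Likeness over the libraries was measured as Pearson's r of log2(TPM + 1) with the mean of the members, among 10733 genes that reached 10 TPM somewhere. The 8 most like genes were Dchs1 (r = 0.991), Slc8a1, Hba-a1 (0.989), Sox18, Lum, Hlx, Klhl4 and Nepn (0.988). All 8 were highest in wild type at day 8 and at most 1.18 TPM in each of the other 8 libraries, so they entered the comparison only through that library. Ttn did not reach 10 TPM in any library and was not compared. Of the other 9 members, Myh7 (0.984) and Tnnt2 (0.980) were closest to the common course and Myl4 (0.676) the farthest. Each member is itself part of the mean, so its r is not independent of that mean. Apart from Myl4 and Myl7, these members too reached 10 TPM only in wild type at day 8. Between pairs of members the median r was 0.779 over 45 pairs, and it was 0.097 without the wild type library of day 8, so the shared course rests on that library. These correlations describe 9 libraries that share their lines and days, and carry no test.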

How the data were processed

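PolyA+ RNA was sequenced from 9 libraries in 6 groups of genotype and day. For each library the authors deposited unscaled, whole-number counts of reads and, in a separate file, TPM values for each gene. HISAT2 2.0.5, StringTie 1.3.3b and the mm10 build are named in the submitters' processing notes, without options, and the use of strand is not given in the sources used here. Entries with no gene name (259 per count file, 0.024% to 0.040% of counts) were left out. Coordinates came from GENCODE M21 and promoter sequences from RefSeq (GRCm38.p6).

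The 24794 genes kept reached, in 2 or more libraries, the CPM (0.079) that 10 counts give at the median library size. After TMM scaling, edgeR 4.0.16 was run on the counts (two-sided quasi-likelihood test, 1 mean per group over all 9 libraries, 3 residual degrees of freedom, R 4.3.3), with Benjamini-Hochberg adjustment over all genes and a threshold of 0.05; 5 comparisons were made. The SE is the log2 difference divided by the root of F. The models were tested on simulated data. Replicate libraries are separate lines, and p-values measure only the spread between them; counting floors cover counting error only. Samples with the same number are the same line: the differences between the lines correlated between days (r = 0.196, 0.135 and 0.367 over 15732 genes), so the line was taken as a replicate block in an alternative fit (2 residual degrees of freedom). Other alternatives were other scalings, no filter, DESeq2 1.42.0, limma 3.58.1 (voom, or TPM with a pseudocount of 1 or 0.1), fewer days, single lines and each library left out.

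The members and the gene lists were chosen with earlier results of these data known. The genes named are all members, Hnrnpll, up to 4 called genes per list with the largest day 8 difference, the highest of each list in wild type at day 8, and the 8 genes most like the members (predicted and clone names left out). Others were chosen after their values were seen. These were paralogs of members, Smyd1, Smarcd3, antisense neighbours, Pth1r, Pecam1, Thy1, Myod1 and Myog, and Mesp1, Kdr, Nkx2-5 and Myocd at day 4. Protein sequences were not used here.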

Additional observations from a re-analysis of the deposited data

Results flagged for a closer look

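Between day 0 and day 4, 3 members moved one way in both knockout lines and the other way in wild type, on the log2(TPM + 1) scale. The difference of these steps was not tested. The share of all genes with such opposed steps is not given here, so the count of 3 has no share to be set against. Myh6 had steps of 1.04 in G6 and 1.49 in H8, against -0.57 in wild type, so that the mean knockout step was 1.84 higher. Myh7 had steps of 0.36 in G6 and 0.28 in H8, against -0.39 in wild type, a mean difference of 0.71, at levels under 1 TPM in every line at both days. Myl7 had steps of -1.17 in G6 and -0.57 in H8, against 1.91 in wild type, a mean difference of -2.78.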

How the results depend on the processing

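The direction of the day 8 difference was negative for 10 of 10 members under each alternative run, and the number called lower (8) became 0 with the 3 day 8 libraries alone and ran from 0 to 9 when single libraries were left out; the cause was not tested. With the replicate block (line) 9 members were called at day 8, with Tnni1 gained, and 1573 of all genes were called lower. Beyond the calls marked in the text the block changed no other call of a member. Members called lower at day 4 became 2 with DESeq2 and stayed at 0 when single libraries were left out. Members called at day 0 (1) became 5 with DESeq2, 0 with the day 0 libraries alone, where 8 passed the filter, and 1 to 2 with single libraries left out. Members called higher at day 8 than at day 4 in the knockout became 2 with DESeq2, 1 with limma-voom, 1 with days 4 and 8 only, and 0 to 1 with single libraries left out. The smaller step in the knockout was called for 6 members with DESeq2, 5 with log2(TPM + 1), and 0 with any single library left out. The sign of the uncalled Atp2a2 difference turned with log2(TPM + 1) (-0.025), log2(TPM + 0.1) (-0.025), line H8 alone (-0.036) and, over single libraries left out, within -0.047 to 0.20, and that of Actg1 turned with library totals only (0.056), line H8 alone (0.11) and, over single libraries left out, within -0.16 to 0.098. Another scaling moved the median of all genes by at most 0.094. The number of all genes called by DESeq2 or limma is given for day 8 only. Genes lower at day 8 numbered 1205, against 2645 with DESeq2, 2441 with limma-voom, 2079 with log2(TPM + 1) and 2058 with days 4 and 8 only. Depth limits the members at day 0, where the knockout libraries hold 54218051 and 61626609 counts and several members have under 50.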

Other observations

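Genes of the early mesoderm and heart stood apart in both directions at day 4, and none of the 4 given here passed the edgeR test; they were chosen after their values were seen. Mesp1, a transcription factor gene of early cardiac mesoderm, was read at 0 TPM in G6 and 1.98 TPM in H8, against 87.5 TPM in wild type, or 0 and 197 counts against 7653. It did not pass the edgeR test (adjusted p = 0.312), and its values in the knockout lines lay far apart. Kdr, a receptor gene of mesoderm and endothelium, was read at 0.485 TPM in G6 and 1.11 TPM in H8, against 32.2 TPM in wild type at day 4 (log2 -5.40, adjusted p = 0.128). Nkx2-5, a cardiac transcription factor gene, stood the other way, at 0.793 TPM in G6 and 0.536 TPM in H8, against 0.038 TPM in wild type (log2 4.01, adjusted p = 0.176). Myocd likewise had 90 counts in G6 and 101 in H8, against 0 in wild type (adjusted p = 0.137). Among the 21 cardiac transcription factor genes tested the median log2 difference at day 4 was -0.74.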
